A study of Monodelphis domestica and Mus musculus with 26 samples.

Results

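Sertoli cells are the somatic nurse cells of the seminiferous tubule. Each one surrounds germ cells of several stages, seals the tubule with its neighbours to form the blood-testis barrier, feeds germ cells with lactate and other metabolites, answers follicle-stimulating hormone and androgen, and clears the residual bodies that spermatids shed. The cells described here were picked from 10x 3′ single-cell libraries of whole dissociated testis by the counts of a few known Sertoli genes, and they made up 3713 of 47192 kept cells. The mouse libraries came from 3 samples of adult C57BL6/J mice. The opossum libraries came from 3 samples of adult gray short-tailed opossums (Monodelphis domestica), a marsupial. Testes of both species were decapsulated and digested with collagenase and trypsin, and no cell type was sorted. Whole-testis bulk libraries of the opossum at 1, 2, 3 and 4 months and in adults (20 libraries, of which 16 were polyA-selected and 4 rRNA-depleted) took no part in picking the cells and were used to follow the same genes with age. No animal carried an engineered allele or received a treatment, as far as the labels say. The labels number the samples and do not say that each came from a separate animal, so p-values here measure the spread between these samples.

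A barcode was kept with at least 1000 counts and 500 genes. A mouse cell was chosen where its counts of Cst9, Cst12, Aard, Defb36, Defb19 and Tsx summed to 2.5 or more. An opossum cell was chosen where AMH, FSHR, SOX9, WT1, INHA, INHBB, CLDN11 and GATM summed to 2.5 or more and CYP17A1, CYP11A1, DCN and COL1A2 to less than 1.5. Only 6 of the 8 opossum choosing genes carry a name in the opossum table (AMH and CLDN11 do not), and only 2 of the 4 excluding genes do (CYP11A1 and DCN). The mouse rule has no excluding genes. The chosen cells are called Sertoli-rule cells, because a part of the mouse cells also carried Leydig-cell genes, as the data on the mouse cells show. Since the rule used the counts of these same cells, every contrast of chosen with other cells is a description without a test.

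The 6 mouse choosing genes encode small secreted or cytoplasmic proteins known for Sertoli expression in the mouse: the cystatins Cst9 and Cst12, the beta-defensins Defb19 and Defb36, the alanine- and arginine-rich protein Aard, and the X-linked testis gene Tsx. None of the 6 has a named counterpart in the opossum table. Among them 4 lie close together in pairs. Cst12 (chromosome 2, 148631281 to 148635816, plus strand) and Cst9 (148677039 to 148680659, plus strand) are near neighbours, and so are Defb19 (152418002 to 152422258, minus strand) and Defb36 (152446245 to 152454649, plus strand), also on chromosome 2 (GRCm39 and GENCODE vM39 here and for all mouse positions). The 250 bases before the annotated start of Cst12, Cst9 and Defb36 are printed because these are the promoter regions of genes that define the mouse cells. Capitals mark CAAGGTC or its reverse complement, the half-site bound by the steroidogenic factor NR5A1, which Sertoli and Leydig cells both use.
Cst12, chr2:148631031-148631280, plus strand: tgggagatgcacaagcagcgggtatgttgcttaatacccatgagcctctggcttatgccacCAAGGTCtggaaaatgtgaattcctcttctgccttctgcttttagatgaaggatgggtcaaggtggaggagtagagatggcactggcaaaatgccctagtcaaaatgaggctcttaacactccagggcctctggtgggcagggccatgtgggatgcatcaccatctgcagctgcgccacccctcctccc
Cst9, chr2:148676789-148677038, plus strand: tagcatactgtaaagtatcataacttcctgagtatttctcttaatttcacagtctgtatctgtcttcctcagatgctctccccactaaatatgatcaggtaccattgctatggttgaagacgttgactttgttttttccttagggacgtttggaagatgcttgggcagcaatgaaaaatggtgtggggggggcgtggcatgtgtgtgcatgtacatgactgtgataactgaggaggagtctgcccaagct
Defb36, chr2:152445995-152446244, plus strand: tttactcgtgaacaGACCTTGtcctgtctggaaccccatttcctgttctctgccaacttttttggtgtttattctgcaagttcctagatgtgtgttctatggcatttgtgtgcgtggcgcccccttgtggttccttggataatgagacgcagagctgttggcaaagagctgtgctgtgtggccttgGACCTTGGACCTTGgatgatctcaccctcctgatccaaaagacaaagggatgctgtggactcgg

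The half-site was searched on both strands in the windows of 5 of the 6 genes (Cst9, Cst12, Aard, Defb36 and Tsx). Defb36 held it 3 times, at 236, 64 and 57 bases before the start, and the last copies lie end to end. Cst12 held it once at 189 bases, while the windows of Cst9, Aard and Tsx had no match. Among all 21770 mouse protein-coding genes, 847 (3.89%) held it in a window of this length. The SOX motif AACAAT was in none of these 5 windows and in 10.3% of all. The GATA motif AGATAA was in 1 of the 5 (Aard) and in 10.5% of all. These are matches of letters, and no binding was measured here.

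Sertoli-rule cells were 1380 of 8138 kept cells (16.96%, 95% binomial interval 16.1 to 17.8) in mouse replicate 1, 480 of 7835 (6.13%) in replicate 2 and 451 of 9472 (4.76%) in replicate 3. In the opossum they were 703 of 5572 (12.6%), 621 of 8126 (7.64%) and 78 of 8049 (0.969%, 95% interval 0.767 to 1.21). The intervals are exact Clopper-Pearson intervals and cover counting error only. Averaged over libraries, mouse had 9.28% ± 6.68 and opossum 7.08% ± 5.84 (SD, n = 3 each), so the libraries of a species differed among themselves by more than the species means did. The share moved with depth: with every kept cell thinned to 1000 counts it was 5.31% in mouse and 1.25% in opossum. The order of the means turned with only cells of at least 2000 counts (7.76% in mouse, 11.3% in opossum) and with the opossum rule in both species (2.66% in mouse, 7.08% in opossum). That rule is not quite the same in both, since mouse names all 8 choosing and 4 excluding genes and opossum only 6 and 2. Mean shares with the highest Scrublet doublet scores left out were 8.64% and 7.16%. These scores ran high in some chosen mouse cells, and the top 8% of each library held 14.1%, 5.42% and 26.6% of the chosen mouse cells and 4.84%, 10.6% and 5.13% of the chosen opossum cells. Median counts per chosen cell were 1865, 2467 and 3540 in mouse against 2995, 4770 and 2933 in other cells, and 3709, 3146 and 2048 in opossum against 1771, 2256 and 1624. Summed counts of the chosen cells came to 7091290, 1573900 and 1850750 for the mouse libraries and to 3241990, 3144720 and 186812 for the opossum ones. Opossum replicate 3 had the fewest.

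Cells just inside the threshold (a sum of 2.5 to 3) numbered 179, 111 and 46 in the mouse libraries, with 120, 39 and 36 cells just outside (2 to 2.5). The opossum libraries had 232, 202 and 30 cells inside and 4, 18 and 17 outside. The 2 bands differed in depth, most of all in replicates 1 and 2. Median counts in mouse were 1930, 2449 and 2307 inside and 12989, 4669 and 2072 outside. In opossum they were 2489, 2515 and 1549 inside and 29306, 17309 and 2172 outside. The levels inside and outside are therefore not of like cells. In mouse the cells just inside had summed levels of the other Sertoli markers of 1699, 2913 and 3050.2 CPM (counts-per-million of all counts of the chosen cells), and those just outside had 1258, 1437 and 861 CPM. Markers of Leydig cells moved with them, at 591, 10469 and 4008 CPM inside and 132, 3352 and 211 CPM outside. In opossum the other Sertoli markers summed to 1946, 2192 and 2359 CPM inside and 431, 2407 and 2214 CPM outside. Leydig markers summed to 1052, 679 and 508 CPM inside and 328, 161 and 397 CPM outside there.

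Mouse choosing genes were present in every library but not evenly. Defb19 stood at 1077, 751 and 2426 CPM in the chosen cells of replicates 1 to 3 and at 22.8, 17.4 and 9.02 CPM in the other kept cells. Cst9 stood at 819.5, 219 and 1401 CPM against 9.12, 2.94 and 6.65. Aard stood at 563, 733 and 1343 CPM against 8.06, 6.42 and 8.44. All 6 genes were low in the other cells and highest in replicate 3. A single gene carried the whole sum in 4.78%, 14.4% and 7.32% of chosen cells, and 3 or more of the genes were seen in 81.3%, 51.0% and 68.7%. Defb19 was the largest part of the sum in 41.8%, 45% and 55.9% of them.

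In the opossum one gene dominated. GATM, which makes guanidinoacetate in the first step of creatine synthesis, stood at 847, 547 and 744 CPM in chosen cells and at 55.7, 26.4 and 34.1 in others, and it gave the largest part of the sum in 77.7%, 63.0% and 43.6% of the cells. WT1, a zinc-finger transcription factor that Sertoli cells keep for life, stood at 316, 349 and 575 CPM against 26.2, 23.7 and 30.3. FSHR, the receptor of follicle-stimulating hormone, stood at 81.9, 209 and 378 CPM against 4.33, 4.20 and 5.06. SOX9, the testis-determining SRY-related factor, stood at 65.3, 39.3 and 23.6 CPM against 4.83, 1.45 and 1.06. INHA, the inhibin alpha subunit, stood at 67.1, 62.2 and 35.1 CPM against 7.39, 17.1 and 3.15, and INHBB, a beta subunit, was at 0, 0.318 and 0 CPM. FSHR was highest in replicate 3 and SOX9 in replicate 1. A single gene carried the sum in 19.6%, 18.8% and 25.6% of chosen opossum cells. Only 32.7%, 35.7% and 35.9% of them had counts of 3 or more of the 6 named choosing genes.

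The mouse label did not hold for every chosen cell. In replicates 1 to 3, 170 (12.3%), 214 (44.6%) and 111 (24.6%) of the mouse Sertoli-rule cells had a sum of 1.5 or more of Cyp17a1, Cyp11a1, Dcn and Col1a2, which the opossum rule forbids. None of these counts were seen in 1103, 242 and 331 of the cells, 107, 24 and 9 had some but less than 1.5, 16, 14 and 14 had 1.5 to 5, 31, 52 and 11 had 5 to 20, and 123, 148 and 86 had 20 or more. In the cells past 1.5, Cyp17a1, the enzyme that turns progestins into androgens in Leydig cells, stood at 6963, 8921 and 8062 CPM. In the remaining cells it stood at 8.18, 14.2 and 0 CPM. Since Cyp17a1 is a gene of the split, this contrast was fixed by it. Insl3, a peptide hormone of Leydig cells, took no part in the split. It stood at 1036, 1412 and 7295 CPM past 1.5 and at 2.47, 17.4 and 0 in the remainder. Defb19 was alike on both sides of the split. It stood at 1318, 891 and 1986 CPM past 1.5 and at 1032, 608 and 2619 CPM in the remainder. Cst9 differed, at 87.3, 22.3 and 84.3 CPM past 1.5 and 956, 421 and 1982 CPM in the remainder. Summed levels of the other Sertoli markers were 5184, 5279 and 5037 CPM past 1.5 and 3611, 2649 and 9565 CPM in the remainder. Conversely, 156, 301 and 101 mouse cells held 5 or more counts of Cyp17a1 and Cyp11a1 together, and 84.0%, 62.5% and 89.1% of them were Sertoli-rule cells. The species comparisons below were therefore also run with mouse cells chosen by the opossum rule (the same 8 genes, all named in mouse, and the same 4 excluding genes). These were 413, 67 and 195 cells, of which 386, 57 and 184 were also Sertoli-rule cells.

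**Figure D1:**
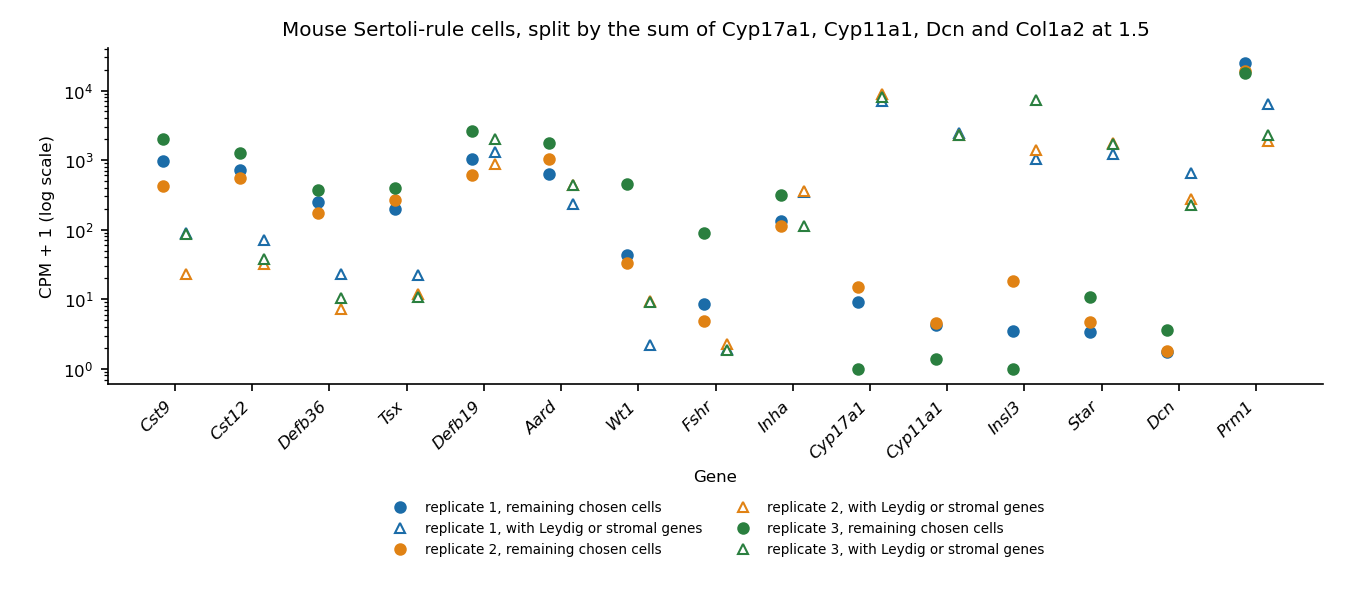
Level of 15 genes in CPM plus 1 (log axis) in the mouse Sertoli-rule cells of the 3 libraries, with filled circles for cells below 1.5 summed counts of Cyp17a1, Cyp11a1, Dcn and Col1a2 and open triangles for cells at 1.5 or more. Defb19 overlaps between circles and triangles, and Cst9, Cst12, Aard, Defb36 and Tsx are higher in the circles. Insl3 and Star are higher in the triangles, as are Cyp17a1 and Cyp11a1, for which the split fixes this.

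The mouse libraries also differed from each other. Wt1 stood at 36.03, 19.97 and 311 CPM in the chosen cells, Sox9 at 8.98, 3.10 and 96.3 CPM and Fshr at 6.49, 2.54 and 60.7 CPM, so replicate 3 was the highest for all 3 genes. With the opossum rule the values were 198, 179 and 615 CPM for Wt1, 40.9, 35.2 and 183 CPM for Sox9 and 31.2, 14.4 and 122 CPM for Fshr. Prm1, the protamine of elongating spermatids, stood at 21763, 10461 and 13049 CPM in chosen cells and at 13325, 9097 and 19417 CPM in others. Replicates 1 and 2 were the libraries in which chosen cells had more of it than the other cells. Mouse replicates 1 and 2 shared 198 barcodes with each other and at most 2 with any of the other 4 libraries, which shared 30 to 43 in each pair. No barcode was a Sertoli-rule cell in more than 1 library. The 13 mitochondrial genes took 2.82%, 3.12% and 11.1% of the counts of chosen mouse cells and 0.852%, 0.279% and 1.95% of those of other cells; no mitochondrial gene is named in the opossum table. Whether germ-cell RNA or library quality shaped the values of replicates 1 and 2 was not tested.

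Marker lists of other testis cells describe what else the chosen cells held. In mouse, 12 of 13 Leydig markers passed the rule for leading genes (at least 2-fold over the other cells, a log2 ratio of 1 or more, in all 3 libraries, and at least 20 CPM). The opossum rule leaves out mouse cells rich in Cyp17a1 and Cyp11a1, so Leydig markers are low there in part by construction. The Leydig list summed to 3232, 12893 and 8005 CPM in chosen cells and 241, 361 and 177 CPM in others. It summed to 475, 558 and 475 CPM in the cells of the opossum rule. Endothelial markers summed to 976, 1393 and 10.9 CPM in these last cells, against 57.6, 66.7 and 17.9 CPM in cells of the mouse rule and 69.8, 39.3 and 34.5 CPM in others, so they were high in replicates 1 and 2, and Cldn5 made most of both sums. Immune markers summed to 901, 42.01 and 312 CPM in them, against 93.9, 100.0 and 227 CPM by the mouse rule. The part of these cells in the values by the opossum rule was not tested. Elongating spermatid markers summed to 87050.5, 43952 and 39534 CPM in mouse, to 83910.5, 47763 and 19319 CPM by the opossum rule and, over the 7 of 15 that are named, to 2998, 7046 and 2809 CPM in opossum. In opossum none of 6 named Leydig markers led. CYB5A and SCP2 made most of their sum, and CYP11A1, an excluding gene, was low by construction. Spermatogonial markers were higher in the chosen opossum cells, at 4157, 1804 and 1959 CPM against 1170.0, 719.6 and 657. UCHL1 made most of that sum, and of 9 named markers UCHL1 and ID4 led. UCHL1, a ubiquitin hydrolase used as a spermatogonial marker in rodents, stood at 4007, 1657 and 1846 CPM in chosen and 816, 416 and 339 CPM in other opossum cells. MYH11, smooth-muscle myosin and a marker of peritubular cells, stood at 965, 590.2 and 633 CPM against 515, 275 and 503. None of the other 10 named peritubular and stromal markers was higher in chosen cells in any opossum library. GFRA1, KIT and DDX4, further spermatogonial and germ-cell markers, were lower in chosen than in other opossum cells in all 3 libraries, so the rise of UCHL1 and ID4 was not shared by them. Endothelial markers summed to 89.3, 11.6 and 616 CPM in the chosen opossum cells, highest in replicate 3, and to 73.7, 39.9 and 113 CPM in others. Of the 8 named, 7 were higher in chosen cells of replicate 3, against 5 and 0 in replicates 1 and 2. Among 28 other Sertoli markers, 15 led in mouse, and among the 12 named in opossum 4 led (GATA4, GATA1, DMRT1 and LDHB). Only 6, 7 and 5 of these 12 were higher in chosen than in other cells of opossum replicates 1 to 3. The median of their mean log2 ratios was 0.19. The other 16 of the 28 have no name in the opossum table, so the label rests on few markers there. Whether cells of other types entered the opossum values was not tested.

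**Figure D2:**
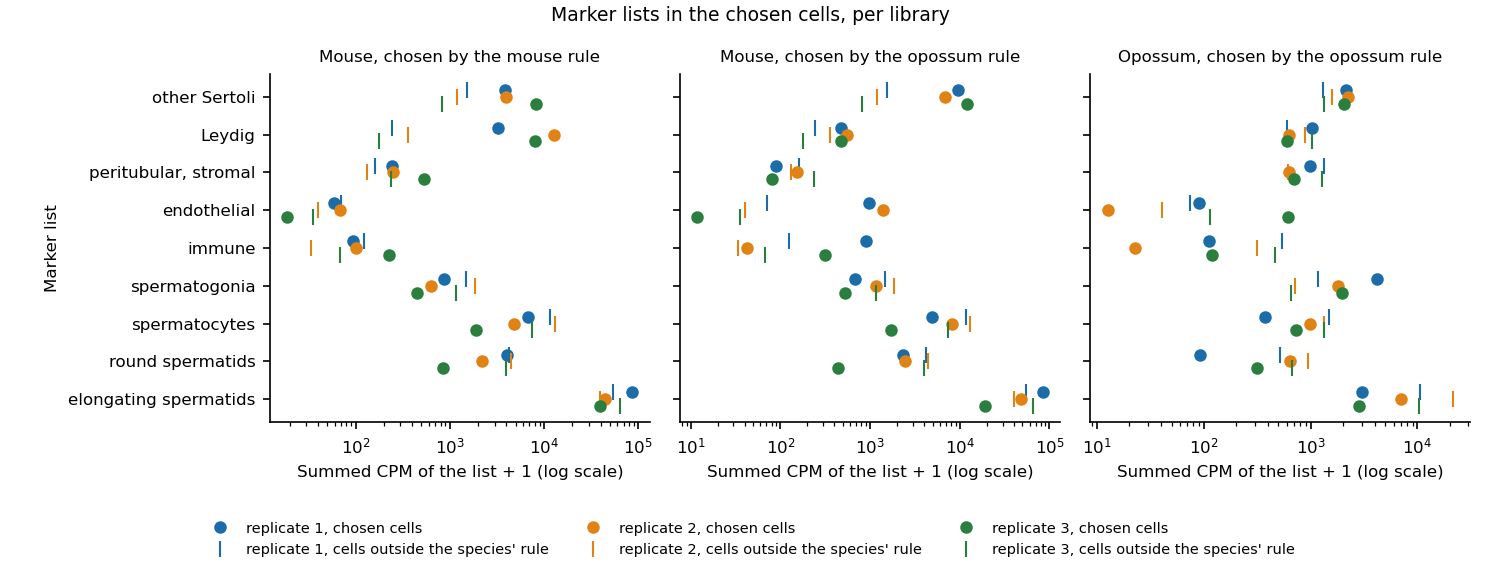
Summed level of each marker list in CPM plus 1 (log axis), in chosen cells (circles) and in cells outside the species' rule (ticks), with 1 colour per library. Leydig markers are far above the ticks in mouse cells of the mouse rule. They are nearer to the ticks, though still above them, in mouse cells of the opossum rule, which leaves out cells rich in Cyp17a1 and Cyp11a1.

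Of 4755 genes with at least 20 CPM in every mouse library, 681 (14.3%) led in the Sertoli-rule cells, 1487 did without replicate 1, and 236 of 4259 did when only the mouse cells below the exclusion were taken. Ptgds, which makes prostaglandin D2, was first, at 2363, 6822 and 2820.1 CPM in chosen cells and 20.01, 80.1 and 9.54 CPM in others. Fabp3, a fatty acid carrier, stood at 1832, 8072 and 4522 CPM against 28.8, 111 and 22.9. Lcn2, the siderophore-binding lipocalin, stood at 1557, 5019.6 and 2468 CPM against 15.5, 57.4 and 8.55. Hsd17b3 and Hsd3b1, enzymes of testosterone synthesis, were among the first 15, with Akr1cl, Agt, Aldh1a1, Bhmt, Apoc1, Tmem176a, Sult1e1, Gstm2 and Gstm1. Clu, the secreted chaperone clusterin, and Gstm2 were the 2 of the 15 that also led in mouse cells of the opossum rule, where Clu stood at 2465, 1059 and 2138 CPM. Ptgds stood at 696, 281 and 391 CPM there and Fabp3 at 25.2, 83.5 and 0 CPM.

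In mouse cells chosen by the opossum rule, 963 genes led, and 25 of them were ranked in the same way. Amhr2, the receptor of anti-Müllerian hormone, stood at 809, 889 and 656 CPM. Rhox8 stood at 429, 399.9 and 313 CPM and Rhox5 at 224, 161 and 133 CPM, both homeobox genes of the X-linked Rhox cluster. Ctsl, the protease cathepsin L, stood at 1738, 1021 and 3344 CPM, and Sparc, a matrix glycoprotein, at 1409, 1085 and 1499 CPM. Several of the 25 lie close together on the mouse X chromosome near Tsx, which starts at 102458068: Gm3880 starts at 101729890, Gm9112 at 101750496, 1700011M02Rik at 101952480 and 1700018G05Rik at 101971903. Gm3880 stood at 422, 237 and 261 CPM, Gm9112 at 557, 424 and 275 CPM, 1700011M02Rik at 550.3, 290.5 and 301 CPM and 1700018G05Rik at 493, 291 and 412 CPM. The related names of some of these genes mean that reads may be split between near-identical copies. Defb45 and Cstdc1 also led, and they lie beside the choosing genes, Defb45 between Defb19 and Defb36, and Cstdc1 next to Cst12.

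Of 5000 eligible opossum genes 774 (15.5%) led in the Sertoli-rule cells, and 541 of these carry a name. SNTG1, a syntrophin scaffold protein, stood at 245, 642 and 1159 CPM in chosen cells and at 5.61, 17.9 and 19.8 CPM in others. KIRREL3, an adhesion protein of the nephrin family, stood at 819.9, 1992 and 2754 CPM against 33.5, 51.6 and 39.99. PLEKHA7, a protein of the apical adherens junction, stood at 240.4, 473 and 613 CPM against 19.4, 16.96 and 11.4. ADCY1, an adenylate cyclase, stood at 118, 308 and 602 CPM against 7.52, 8.82 and 7.91. NR5A2, an orphan nuclear receptor related to NR5A1, stood at 142, 239.9 and 533 CPM against 15.02, 9.92 and 10.1. SYT1, a calcium sensor of vesicle release, HOMER2, a scaffold protein, and ALAS2, an enzyme of haem synthesis, were also among the first 15. All of SNTG1, KIRREL3, PLEKHA7, ADCY1, NR5A2 and SYT1 were lowest in replicate 1 and highest in replicate 3, while ALAS2 was highest in replicate 1. Leaving out opossum replicate 1 gave 1105 leading genes. The other 7 of the 15 have no name in the table, and 2 of them, ENSMODG00000049822 and ENSMODG00000045578, are neighbours on opossum chromosome 1 in the deposited coordinates, whose build is uncertain because the only one named for opossum libraries in the submitters' processing notes is the mouse build GRCm39 (657940761 to 657941657 and 657943785 to 657945638, both minus strand).

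Of 1779 genes matched by symbol and eligible in both, 218 (12.3%) led in mouse, 137 (7.7%) in opossum and 50 (2.81%) in both, that is 22.9% of the mouse and 36.5% of the opossum genes. With the opossum rule in mouse 75 genes led in both, with only the mouse cells below the exclusion 21 did, and without mouse replicate 1 87 did. Of the 50, 31 also led in mouse by the opossum rule. SUSD3, a membrane protein, stood at 248, 762 and 459 CPM in chosen mouse cells and at 579.8, 466 and 455 CPM in chosen opossum cells. ALAS2 stood at 31.2, 35.05 and 50.6 CPM in mouse and 442, 260.3 and 114 CPM in opossum. It is also on a list of 6 erythroid markers, of which only 1 is named in opossum. In mouse that list summed to 213, 879 and 205 CPM in chosen cells and 172, 204 and 166 CPM in others. The part of erythroid cells in these values was not tested. LDHB, the lactate dehydrogenase subunit of oxidative tissues, stood at 329, 688 and 525 CPM and 608, 298 and 145 CPM. GATA4, a transcription factor of gonadal somatic cells, stood at 22.99, 24.01 and 132 CPM and 150.3, 189 and 304 CPM. CLTB, RALB, TSPAN17, GAS6, GAMT, PKM and GJA1 also led in both and in mouse by the opossum rule, whereas LAMP2, PROS1, NUCB2 and ALDH1A1 led in both only with the mouse rule.

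The species were compared directly on the 10743 genes that share a symbol and belong to no rule. Counts were summed over the chosen cells of each library and tested with edgeR's quasi-likelihood test, 3 libraries against 3. Differences are opossum minus mouse, and a call needed a log2 difference of at least 1 together with a p under 0.05 after Benjamini-Hochberg adjustment over all genes tested. Of 7883 genes tested, 1547 (19.6%) were higher and 1757 (22.3%) lower in opossum. With the opossum rule in both species, 1110 of 6437 (17.2%) were higher and 1015 (15.8%) lower, and 1890 genes were called both ways, 1885 of them in the same direction. Both fits used the same opossum counts, and most mouse cells of the opossum rule were also Sertoli-rule cells, so this agreement is partly built in. In all 3304 of 7883 (41.9%) were called, so a call alone sets a gene apart from few others. Without mouse replicates 1 and 2, which leaves 1 mouse library that is assumed to vary like the opossum ones, 1631 were called. Species cannot be told apart from gene annotation, the position of the 3′ end, mapping, matching by symbol and the different choosing genes. Mouse replicates 1 and 2, which shared at most 2 barcodes with any opossum library, also stood apart from mouse replicate 3. Their Spearman correlation over the tested genes was 0.912 with each other and 0.707 and 0.719 with replicate 3. The part of this in the species calls was not tested. Fitted differences are on the matched genes with TMM factors, and CPM values are of all counts, so a ratio of printed CPM can differ from the fitted one. The SE printed with a species difference is its absolute value over the square root of the test's F statistic. It therefore restates that statistic and is not a separate estimate.

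The role lists were 10 groups of genes known for Sertoli functions. Their leading counts are over named genes, whatever their level, so the 14.3% and 15.5% of genes with at least 20 CPM that led are no like base for them. Their called counts stand beside 19.6% higher and 22.3% lower among all genes tested. Of 15 hormone receptor and hormone genes, 5 of the 15 named led in mouse (among them Amhr2, Inha, Lhcgr and Igf1r) and 2 of the 10 named led in opossum (FSHR and INHA, both choosing genes). Lhcgr, the receptor of luteinizing hormone on Leydig cells, stood at 82.8, 424 and 152 CPM in mouse cells of the mouse rule and at 0.495, 0 and 0 CPM by the opossum rule. None of the 4 tested genes of the list was called by edgeR in either direction, with the mouse or the opossum rule, and 0 had an unadjusted p under 0.05. DESeq2 called 0 as well. IGF1R, the receptor of insulin-like growth factors, had a difference of 0.03 on the log2 scale, SE 0.67, adjusted p = 0.98.

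**Figure D3:**
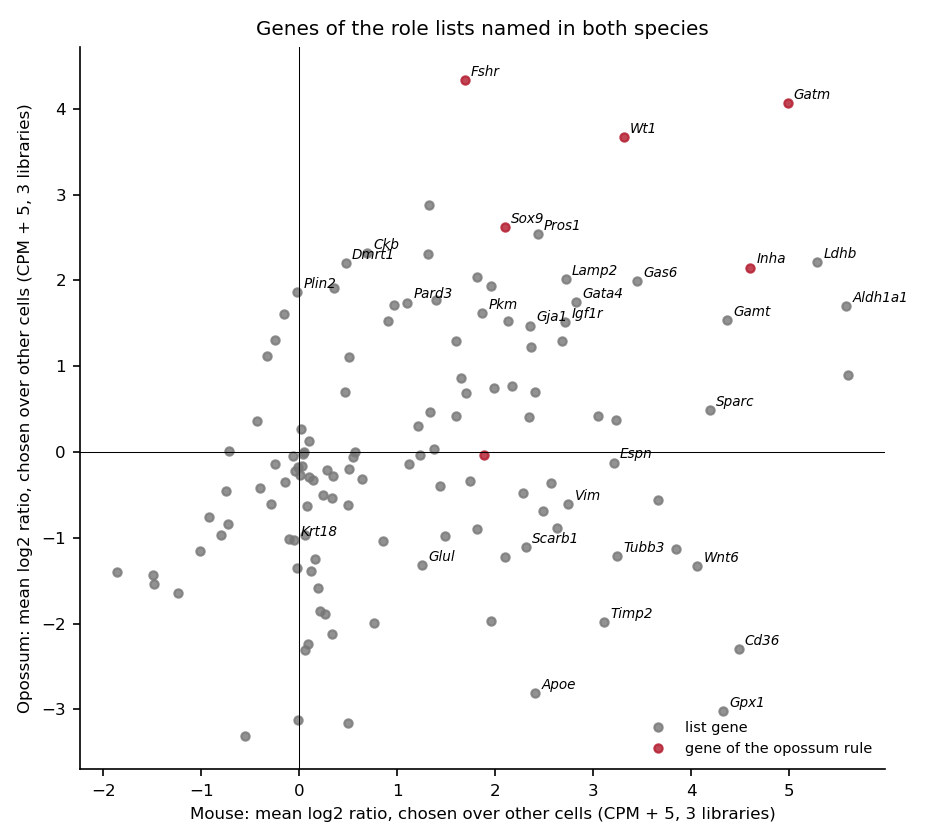
Mean log2 ratio of the level in chosen over other cells (CPM plus 5) in 3 mouse libraries (horizontal axis) and 3 opossum libraries (vertical axis) for each gene of the role lists named in both species. Genes of the opossum choosing rule are red, and Apoe, Cd36, Timp2 and Glul sit to the lower right, above 0 in mouse and below 0 in opossum.

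Of 19 transcription factors, all named in mouse, 6 led there, and 6 of 15 named led in opossum (DMRT1, GATA1, GATA4, GATA6 and the choosing genes SOX9 and WT1), with GATA4 leading in both. DMRT1, a sex-determination factor that keeps Sertoli cells from turning ovarian, stood at 18.9, 2.94 and 80.9 CPM in mouse and 870.2, 592 and 745 CPM in opossum, without overlap (a difference of 4.28 on the log2 scale, SE 0.93, adjusted p = 0.00138). By the opossum rule the mouse values were 43.7, 6.83 and 149 CPM and the difference 3.35, adjusted p = 0.00827. The other opossum cells also held DMRT1 at 215, 132 and 129.8 CPM. With mouse replicates 1 and 2 left out the call on DMRT1 was lost, as were those on other named genes, in a fit with 1 mouse library. GATA1 stood at 13.1, 5.14 and 30.7 and 131, 71.7 and 25.8 CPM and GATA6 at 12.5, 26.1 and 57.6 and 129, 122 and 113 CPM; both were called higher in opossum (adjusted p = 0.027 and 0.0268, edgeR), and neither was with the opossum rule in mouse. NR5A1, the steroidogenic factor named above, was lower in opossum at 12.005, 24.02 and 10.2 CPM against 25.5, 76.003 and 42.1 (a difference of -1.75 on the log2 scale, SE 0.65, adjusted p = 0.0369), and was not called by the opossum rule (-0.94, adjusted p = 0.295). CREB3L1 changed sign. Its log2 difference was -1.90 (adjusted p = 0.0259) with the mouse rule and 5.24, adjusted p = 0.00126 with the opossum rule, under which the mouse values were only 0, 0 and 0.693 CPM against 11.9, 27.7 and 20.6 CPM in opossum. Leaving out 1 library ended these calls. GATA1 was not called without mouse replicate 1, mouse replicate 2 or opossum replicate 1 (adjusted p = 0.0612 to 0.148), and GATA6 without mouse replicate 1, mouse replicate 2, opossum replicate 1 or opossum replicate 2 (adjusted p = 0.0664 to 0.196). NR5A1 was not called without mouse replicate 2, opossum replicate 1 or opossum replicate 3 (adjusted p = 0.0957 to 0.185), and CREB3L1 without mouse replicate 2, opossum replicate 1 or opossum replicate 3 (adjusted p = 0.0707 to 0.14). Of 9 tested, 3 were higher and 2 lower in opossum, and the 5 calls became 3, 2 or 1 without mouse replicate 1, mouse replicate 2 or opossum replicate 1. Of the 9 genes 2 were higher and 1, SOX4, was lower with the opossum rule.

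Of 24 barrier and junction genes, 5 led in mouse (among them Cldn11, the claudin of Sertoli tight junctions, at 117, 49.1 and 146 CPM) and 3 of 15 named led in opossum (OCLN, PARD3 and GJA1). PARD3, a cell-polarity scaffold, stood at 10.8, 21.8 and 14.2 CPM in mouse and 289, 449.8 and 917 CPM in opossum (a difference of 4.72 on the log2 scale, SE 0.75, adjusted p = 0.000135), and the difference with the opossum rule was 5.77, adjusted p = 0.000922. ESPN, espin, which bundles actin at the ectoplasmic specialization that holds spermatids, stood at 111, 93.5 and 420.4 CPM in mouse and at 0.308, 0 and 0 CPM in opossum (adjusted p = 1.75e-05, edgeR). By the opossum rule mouse ESPN stood at 366, 276 and 761 CPM. F11R, the junctional adhesion molecule A, stood at 18.7, 45.1 and 87.9 CPM in mouse and 2.04, 3.63 and 0 CPM in opossum (a difference of -4.32 on the log2 scale, SE 0.77, adjusted p = 0.000319). GJA1, the gap-junction protein connexin 43, led in both species and overlapped between them (a difference of -0.45 on the log2 scale, SE 0.63, adjusted p = 0.589). Of 13 tested, 1 was higher and 3 were lower in opossum. The third lower gene was CLDN5, at 18.1, 32.1 and 0.968 CPM in mouse and 0.617, 0 and 4.43 CPM in opossum, a tight-junction claudin that endothelial cells also express. Of 12 tested with the opossum rule 1 was higher and 3 were lower (ESPN, F11R and CTNNA1, an alpha-catenin). Without mouse replicate 3 the 4 calls became 8.

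Of 17 named mouse genes for signals from Sertoli to germ cells 2 led (Wnt6 and Cxcl12), and of 12 named opossum genes none did. WNT6 stood at 80.2, 323 and 164 CPM in mouse and 0.292, 0.547 and 0 CPM in opossum (adjusted p = 1.75e-05, edgeR). The opossum values lay below those of the other opossum cells (11.8, 5.97 and 7.65 CPM). Kitl, the ligand of the KIT receptor on spermatogonia, stood at 14.97, 2.93 and 242 CPM in mouse, almost all in replicate 3. Gdnf, which maintains spermatogonial stem cells, was at 0.896, 0.635 and 5.02 CPM in mouse and 0, 0.636 and 0 CPM in opossum, near the level of a few counts. Of 5 tested genes none was higher and 3 were lower in opossum (WNT6, WNT5A and PDGFA), and 1 of these, WNT6, could be tested with the opossum rule and was called there too. None was higher at an unadjusted p under 0.05 or by DESeq2 either. WNT5A was not called without mouse replicate 2, opossum replicate 1 or opossum replicate 3 (adjusted p = 0.0577 to 0.0731), nor PDGFA without mouse replicate 2, opossum replicate 1 or opossum replicate 2 (adjusted p = 0.0528 to 0.16). The 3 calls became 1 without mouse replicate 2 or without opossum replicate 1.

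Retinoic acid made around the tubule starts spermatogonial differentiation and meiosis. Of 15 retinoid genes named in mouse 3 led, and of 13 named in opossum 1 did. ALDH1A1, which oxidizes retinal to retinoic acid, stood at 861, 3174 and 985 CPM in mouse and 3779.6, 2053 and 2016 CPM in opossum, with overlap (a difference of 0.38 on the log2 scale, SE 0.86, adjusted p = 0.75). By the opossum rule the mouse values were 102, 104 and 244 CPM, the groups no longer overlapped and the difference was 4.10, adjusted p = 0.00293. ALDH1A2, another retinal dehydrogenase, stood at 3.35, 3.97 and 12.1 CPM in opossum and 35.7, 40.002 and 29.6 CPM in mouse (a difference of -3.31 on the log2 scale, SE 0.70, adjusted p = 0.00126); mouse cells outside the rule held more of it (75.7, 83.4 and 67.9 CPM). DHRS3, a retinal reductase, was also lower (a difference of -2.11 on the log2 scale, SE 0.70, adjusted p = 0.0231) and was not called by the opossum rule or without mouse replicate 2, opossum replicate 1 or opossum replicate 3 (adjusted p = 0.0634 to 0.176); with only the mouse cells below the exclusion its difference was 0.80. Of 9 tested, none was higher and 3 were lower, and at an unadjusted p under 0.05 none was higher and 4 were lower (DESeq2 called 0 higher and 3 lower). With the opossum rule 1 of 7 was higher and 2 were lower.

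Secreted proteins and iron carriers were the next list. Of 19 named mouse genes 10 led, among them Clu, Ctsl, Cst3 and Sparc, and of 10 named opossum genes 1 did (CP, ceruloplasmin, at 85.4, 85.6 and 107 CPM). The 2 counts rest on different named genes and their difference was not tested. TIMP2, an inhibitor of matrix metalloproteinases, stood at 355, 1004 and 668 CPM in mouse and 1.71, 3.42 and 14.97 CPM in opossum (a difference of -7.56 on the log2 scale, SE 0.99, adjusted p = 3.22e-05), and at 43.1, 22.5 and 47.4 CPM in the other opossum cells. MMP2, one of the enzymes it inhibits, was higher in opossum, at 0.141, 1.91 and 0 CPM in mouse, where 1.00, 3.00 and 0 counts were seen, and 28.3, 15.3 and 42.5 CPM in opossum (adjusted p = 0.00038, edgeR). The other opossum cells held more MMP2, at 94.1, 59.8 and 84.8 CPM. SPP1, osteopontin, was higher in opossum (a difference of 3.06 on the log2 scale, SE 0.89, adjusted p = 0.0109), with opossum values of 9.63, 11.4 and 106 CPM well below those of the other cells (96.9, 195 and 938 CPM). SPP1 was not called without opossum replicate 3 (adjusted p = 0.0973) or with the opossum rule. TFRC, the transferrin receptor, was lower (a difference of -2.60 on the log2 scale, SE 0.89, adjusted p = 0.0268) and was not called without mouse replicate 3, opossum replicate 1 or opossum replicate 2 (adjusted p = 0.0985 to 0.155). Of 9 tested, 2 were higher and 2 lower, and with the opossum rule 2 of 7 were higher (MMP2 and CP) and 1, TIMP2, was lower.

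Sertoli cells engulf residual bodies and dying germ cells and store the lipid they take up. Of 20 genes of this list 10 led in mouse and 4 of 15 named led in opossum (GAS6, PROS1, PLIN2 and LAMP2). GAS6 and PROS1, the bridging ligands of the MERTK, AXL and TYRO3 receptors, led in both species. GAS6 stood at 58.7, 96.5 and 306 CPM in mouse and 128, 78.8 and 109 CPM in opossum, and PROS1 at 20.4, 61.2 and 123 and 125, 114 and 183 CPM; neither was called (a difference of -0.68 on the log2 scale, SE 0.64, adjusted p = 0.408; a difference of 0.85 on the log2 scale, SE 0.62, adjusted p = 0.277). PLIN2, a lipid droplet coat protein, stood at 36.05, 34.3 and 25.7 CPM in mouse and 576, 274 and 313 CPM in opossum (a difference of 3.24 on the log2 scale, SE 0.72, adjusted p = 0.00169), and at 141, 74.8 and 86.7 CPM in the other opossum cells. SCARB1, a receptor for lipoproteins and phosphatidylserine, was lower in opossum at 15.02, 19.2 and 32.6 CPM against 64.4, 182 and 186 (a difference of -3.04 on the log2 scale, SE 0.64, adjusted p = 0.00118). The lysosomal membrane protein LAMP1 was lower in opossum (a difference of -2.48 on the log2 scale, SE 0.67, adjusted p = 0.00661), and not called without opossum replicate 2 (adjusted p = 0.050008). LAMP2 was not called with the mouse rule (a difference of 1.53 on the log2 scale, SE 0.69, adjusted p = 0.0827) and was higher with the opossum rule (3.21, adjusted p = 0.00455). CD36 and ABCA1, which move lipids across the membrane, were lower in opossum (adjusted p = 0.000231 and 0.00528, edgeR), and by the opossum rule ABCA1 was not called (-0.24, adjusted p = 0.8294; with only the mouse cells below the exclusion 0.37), while the mouse values of CD36 were 1.58, 0 and 0.0790 CPM, too low to be tested. Of 15 tested, 1 was higher and 5 were lower, and with the opossum rule 2 of 12 were higher (PLIN2 and LAMP2) and 2 lower (SCARB1 and LAMP1).

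Sertoli cells turn glucose into lactate for germ cells and make creatine. Of the 18 energy genes 4 led in mouse (Ldhb, Gatm, Gamt and Pkm) and 5 of 16 named led in opossum (the same 4, of which GATM was fixed by the rule as a choosing gene, and CKB). LDHB led in both species and overlapped (a difference of -0.73 on the log2 scale, SE 0.74, adjusted p = 0.447). PKM stood at 234, 368 and 297 CPM in mouse and 1566, 809 and 565 CPM in opossum (a difference of 1.47 on the log2 scale, SE 0.75, adjusted p = 0.12) and was not called. CKB, brain-type creatine kinase, stood at 6.56, 10.6 and 27.4 CPM in mouse and 520.3, 298 and 207 CPM in opossum (a difference of 4.43 on the log2 scale, SE 0.77, adjusted p = 0.000281). The other opossum cells held 103, 44.8 and 46.2 CPM. GAMT, the second enzyme of creatine synthesis, was lower in opossum, at 131, 167 and 157 CPM in mouse and 44.1, 23.5 and 22.7 CPM in opossum (a difference of -2.57 on the log2 scale, SE 0.65, adjusted p = 0.00423). GLUL, glutamine synthetase, was lower in opossum at 19.4, 52.7 and 34.9 CPM against 586, 876 and 601 (a difference of -4.58 on the log2 scale, SE 0.80, adjusted p = 0.000281). Among hexokinases HK1 was lower (a difference of -3.14 on the log2 scale, SE 0.74, adjusted p = 0.00262) and HK2 higher (a difference of 2.25 on the log2 scale, SE 0.87, adjusted p = 0.0464), and HK2 was not called by the opossum rule or without mouse replicate 1, mouse replicate 2, opossum replicate 1 or opossum replicate 3 (adjusted p = 0.0542 to 0.171). SLC2A1, the glucose transporter GLUT1, was higher (a difference of 2.74 on the log2 scale, SE 0.67, adjusted p = 0.0034) and was not called by the opossum rule (0.90, adjusted p = 0.341). LDHA, a glycolytic lactate dehydrogenase subunit, was lower in opossum (a difference of -3.39 on the log2 scale, SE 0.81, adjusted p = 0.00295), and its mouse level was 455, 381 and 112 CPM in chosen cells and 878, 1146 and 455 CPM in the other mouse cells. PFKP, PDK3 and SLC16A3 were lower too (adjusted p = 0.0331, 0.0167 and 0.0131, edgeR). They were not called without mouse replicate 1, mouse replicate 2, opossum replicate 1 or opossum replicate 2 (adjusted p = 0.0538 to 0.154) for PFKP, opossum replicate 1 or opossum replicate 2 (adjusted p = 0.0745 to 0.108) for PDK3 and mouse replicate 2 or opossum replicate 1 (adjusted p = 0.0696 to 0.0804) for SLC16A3. PFKP was not called by the opossum rule either (-2.61, adjusted p = 0.0582). Without mouse replicates 1 and 2 the difference of PFKP was 0.27. Of 15 tested, 3 were higher and 7 lower, and with the opossum rule 1 of 14 was higher and 5 were lower. The 10 calls became 6 without opossum replicate 1.

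**Figure D4:**
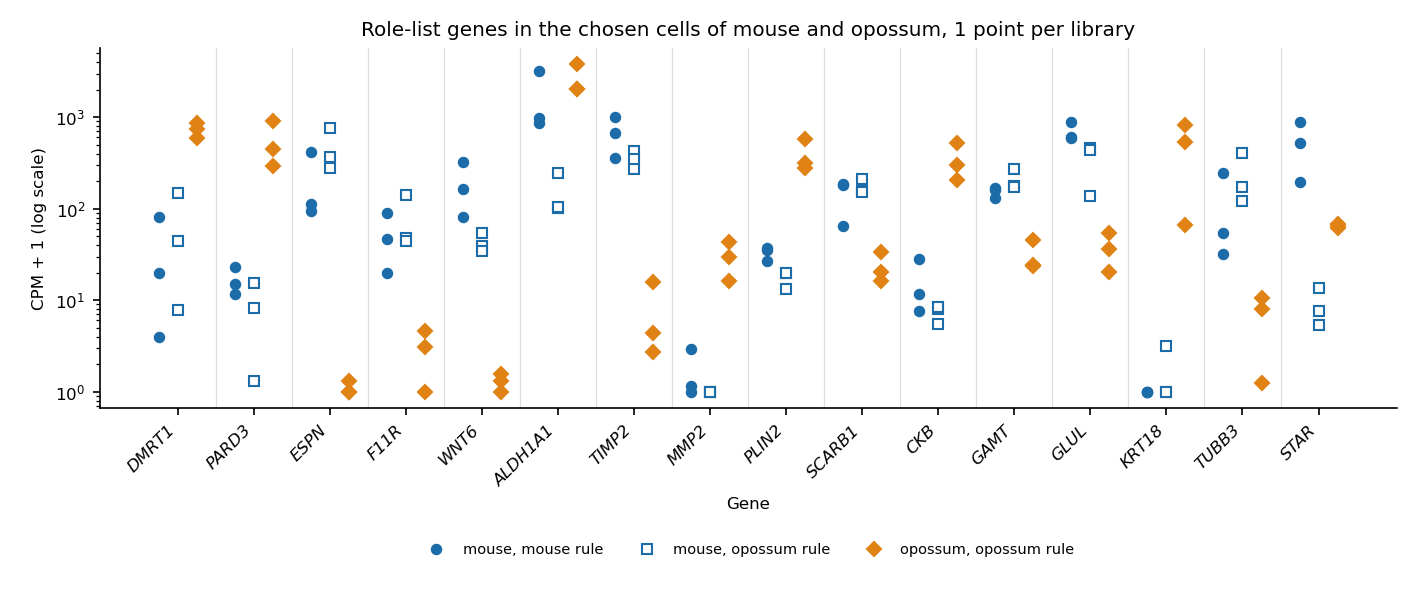
Level of 16 genes in CPM plus 1 (log axis), with 1 point per library for mouse cells of the mouse rule (filled circles), mouse cells of the opossum rule (open squares) and opossum cells (diamonds). DMRT1, PARD3, PLIN2, CKB and KRT18 are higher in the opossum, and ESPN, WNT6, TIMP2, GLUL and TUBB3 are higher in the mouse by both rules. STAR changes place between the rules used in mouse. ALDH1A1 overlaps between the species by the mouse rule and is higher in the opossum by the opossum rule.

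Of the 16 glutathione and redox genes 4 led in mouse (Gsta4, Gstm1, Mgst1 and Gpx1) and 1 of 10 named led in opossum (SOD2). Of 10 tested, none was higher in opossum and 3 were lower, MGST1, GPX1 and CAT (at an unadjusted p under 0.05, 0 higher and 4 lower, and by DESeq2 0 higher and 5 lower). MGST1, a microsomal glutathione transferase, stood at 349, 1535 and 737 CPM in mouse and 154, 98.96 and 133 CPM in opossum (a difference of -3.02 on the log2 scale, SE 0.78, adjusted p = 0.00479); by the opossum rule the mouse values were 199, 236 and 233 CPM and it was not called. GPX1, a glutathione peroxidase, was lower (a difference of -3.94 on the log2 scale, SE 0.84, adjusted p = 0.0013) and was not called with only the mouse cells below the exclusion. CAT, catalase, stood at 16.5, 47.02 and 51.8 CPM in mouse and 14.2, 6.63 and 13.3 CPM in opossum (a difference of -2.01 on the log2 scale, SE 0.65, adjusted p = 0.0192). CAT was not called without mouse replicate 2 or opossum replicate 2 (adjusted p = 0.0732 to 0.118), and with only the mouse cells below the exclusion its difference was 0.57. None of 8 was higher and 1, GPX1, was lower with the opossum rule. Without mouse replicate 3 the 3 calls became 6.

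Of the 17 cytoskeleton genes 6 led in mouse and 2 of 13 named led in opossum (TUBB2A and EZR). TUBB3, a neuronal-type beta-tubulin, stood at 53.7, 30.6 and 242 CPM in mouse and 0.237, 9.62 and 6.99 CPM in opossum (a difference of -4.52 on the log2 scale, SE 0.98, adjusted p = 0.00138). MAP1B, a microtubule-associated protein, stood at 27.3, 24.6 and 305 CPM in mouse and 0.243, 0.608 and 0 CPM in opossum (adjusted p = 8.24e-05, edgeR). KRT18, a keratin of fetal and immature Sertoli cells, was listed at 0 in the chosen cells of all 3 mouse libraries and stood at 64.8, 825 and 535 CPM in opossum (adjusted p = 2.2e-05, edgeR). It was higher in the other opossum cells (429, 1024 and 587 CPM), so it did not mark the chosen cells. VIM, vimentin, led in mouse and was not called between the species (a difference of 0.44 on the log2 scale, SE 0.64, adjusted p = 0.61). EZR and LMNA were higher and CTTN, cortactin, was lower in opossum (adjusted p = 0.0253, 0.0204 and 0.0378, edgeR), and all 3 were called with the opossum rule. EZR was not called without mouse replicate 1 or opossum replicate 1 (adjusted p = 0.0982 to 0.187), LMNA without mouse replicate 1 or opossum replicate 1 (adjusted p = 0.0594 to 0.087) and CTTN without mouse replicate 3, opossum replicate 2 or opossum replicate 3 (adjusted p = 0.0674 to 0.19). Of 12 tested, 3 were higher and 3 lower, and with the opossum rule 3 of 10 were higher and 3 lower. Over the 10 lists 44 genes were called between the species. Of these, 26 were called with the opossum rule, 25 in the same direction (CREB3L1 turned), 10 were not called and 8 could not be tested, while 5 further genes were called. The opossum counts are the same in both fits, so agreement is partly built in.

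Of 5 tested genes of the Leydig list, 3 were lower in opossum with the mouse rule, and 2 were higher and 1 lower with the opossum rule. STAR, which carries cholesterol into mitochondria, stood at 194, 892 and 521 CPM in mouse and 59.8, 64.4 and 67.2 CPM in opossum and was called lower (a difference of -3.30 on the log2 scale, SE 0.74, adjusted p = 0.00183). By the opossum rule the mouse values were 4.32, 6.56 and 12.6 CPM and the difference turned to 2.91, adjusted p = 0.00502. The other opossum cells held more STAR, at 181, 389 and 485 CPM. FDX1 and FDXR, the electron carriers of mitochondrial cytochromes P450, were lower in opossum (a difference of -4.10 on the log2 scale, SE 0.79, adjusted p = 0.000585 for FDX1; adjusted p = 2.9e-05 for FDXR, which had 2.57, 5.28 and 0.948 counts in opossum). FDX1 was not called by the opossum rule and FDXR was. CYB5A and SCP2 were not called with the mouse rule, and SCP2 was higher in opossum with the opossum rule (2.02, adjusted p = 0.0414).

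The genes with the largest differences among all matched genes were nearly absent from 1 species by the mouse rule. They were the 12 in each direction with the largest fitted difference among called genes with at least 50 CPM (of the tested genes) in every library of the higher species and a count above 0 in the lower. Since the lower species had almost no counts, levels are given and no fold. GSTM3, a glutathione transferase, had 71649.9, 36338 and 903 counts in opossum and 1.00, 0 and 0.899 in mouse (adjusted p = 1.75e-05, edgeR). These counts follow the unlike depth of the libraries, and in CPM of the tested genes opossum GSTM3 stood at 42565, 20883 and 6277. GSTM genes form a family of close copies, so this match by symbol is uncertain. Mouse Gstm1 stood at 2127, 9909 and 3058 CPM of all counts. KIRREL3 stood at 819.9, 1992 and 2754 CPM in opossum and 1.41, 3.18 and 5.33 CPM in mouse, and ADCY1 at 118, 308 and 602 CPM and 0.282, 0.635 and 0 CPM. By the opossum rule mouse KIRREL3 stood at 33.3, 14.4 and 11.4 CPM (adjusted p = 0.000353, edgeR). GPR50, a melatonin-related orphan receptor, stood at 87.6, 160.3 and 157 CPM in opossum and 0.141, 0 and 0 CPM in mouse. AOX2, an aldehyde oxidase, stood at 70.05, 114 and 224 CPM in opossum and 0, 0.580 and 0 CPM in mouse, and ASTN1, an adhesion protein, at 85.7, 206 and 321 CPM and 0.141, 0.635 and 0 CPM. In the other opossum cells GPR50 stood at 2.98, 3.79 and 2.21 CPM, AOX2 at 3.56, 2.74 and 2.12 CPM and ASTN1 at 7.61, 9.29 and 30.3 CPM, so these genes also set the chosen cells apart within the opossum. NOSTRIN, GPR161, ZNRD2, CPT1B, OTOGL and RNASEK were the remaining ones. Mouse NOSTRIN stood at 19.5, 21.5 and 0 CPM by the opossum rule, under which it was still called (adjusted p = 0.00274, edgeR). GPR161, at 51.4, 677 and 342 CPM in chosen cells, was higher in the other opossum cells (458, 999 and 772 CPM), as was CPT1B.

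Lower in the opossum were GSG1, PGRMC1, AGT, CRISP2, ESPN, BHMT, SLC16A7, TMEM164, TMEM184A, ATP8B3, LIMD2 and SDC4. TMEM184A, a transmembrane protein, stood at 158, 103 and 178 CPM in mouse, 553, 608 and 299 CPM by the opossum rule and 0.308, 0 and 0 CPM in opossum. SDC4, a heparan sulphate proteoglycan, stood at 49.2, 40.6 and 229 CPM in mouse, 170.2, 84.5 and 391 CPM by the opossum rule and 0, 0.196 and 0 CPM in opossum. AGT, angiotensinogen, and BHMT, betaine-homocysteine methyltransferase, went with the Leydig genes of the mouse cells: AGT stood at 475, 2052 and 1078 CPM by the mouse rule and 15.3, 44.5 and 1.14 CPM by the opossum rule, and BHMT at 367, 2481 and 543 and 3.25, 24.3 and 0 CPM. PGRMC1, a membrane haem protein, stood at 362, 1606 and 647 CPM by the mouse rule, 153, 245 and 180.2 CPM by the opossum rule and 0.0856, 0.371 and 7.58 CPM in opossum. GSG1 and CRISP2, genes of germ cells, stood at 2368, 1088 and 944 and 2325, 1230.2 and 814 CPM in chosen mouse cells and at 1650.4, 1177 and 1651 and 2429, 2459 and 1973 CPM in the other mouse cells. ATP8B3 and LIMD2 were lower in chosen than in other mouse cells in all 3 libraries, and SLC16A7 was lower in replicates 2 and 3. The part of germ-cell RNA in these values was not tested. AGT, BHMT and TMEM164 could not be tested with the opossum rule.

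The bulk libraries show the choosing and leading genes in the whole opossum testis at ages that the cells do not cover. In whole tissue, fewer cells of a type and less RNA per cell cannot be told apart, and values are in TPM (transcripts-per-million). GATM was lower in adults than at 1 month. It stood at 1485 and 1559 TPM at 1 month, at 2440.5 TPM in the polyA library of 2 months, at 252, 270.4, 301 and 384 TPM at 3 months, at 162, 208 and 34.96 TPM at 4 months and at 270.0 to 574 TPM (median 348) in the 6 polyA adult libraries (limma on log2(TPM + 1), adult minus 1 month: log2 difference -2.08 ± 0.50 (SE), adjusted p = 0.00336). Both 1-month libraries lay above all adult ones, every polyA adult library lay above the 3 of 4 months, and the call held without each library in turn. With the replicate number as a block in limma the log2 difference of GATM was -1.35 and the call was lost (adjusted p = 0.154). SOX9 stood at 49.2 and 49.9 TPM at 1 month and 8.28 to 35.1 TPM (median 24.7) in adults, and was not called (log2 difference -1.18 ± 0.52 (SE), adjusted p = 0.0724), though it was lower with FPKM in place of TPM (adjusted p = 0.00858). WT1 stood at 10.5 and 11.04 TPM at 1 month and 8.77 to 84.5 TPM (median 58.4) in adults, where replicates 1 and 3 were the lowest (log2 difference 1.68 ± 1.16 (SE), adjusted p = 0.235). FSHR stood at 14.1 and 12.1 TPM and 6.63 to 23.5 TPM (median 13.9) (log2 difference -0.02 ± 0.76 (SE), adjusted p = 0.986). INHA (log2 difference -0.22 ± 0.59 (SE), adjusted p = 0.762) and INHBB (log2 difference -0.15 ± 0.33 (SE), adjusted p = 0.713) were not called. Of 18890 genes tested, 5463 (28.9%) were higher and 2913 (15.4%) lower in adults, and of the 6 choosing genes none was higher and GATM was lower. Without the first or the second 1-month library 3204 or 3145 genes were higher and 1923 or 1882 lower.

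The single polyA library of 2 months had the highest value of all 20 libraries for GATM, SOX9, INHA, KIRREL3, SNTG1 and NR5A2. SOX9 stood at 123 TPM there, INHA at 169 TPM and KIRREL3 at 56.5 TPM. With 1 library it has no spread of its own. Replicate 3 of 4 months was near 0 for FSHR (0.123 TPM), WT1 (0.290 TPM), SNTG1, ADCY1, HOMER2, PLEKHA7 and NR5A2 (each at 0), while its GATM was at 34.96 TPM and its KIRREL3 at 7.77 TPM.

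**Figure D5:**
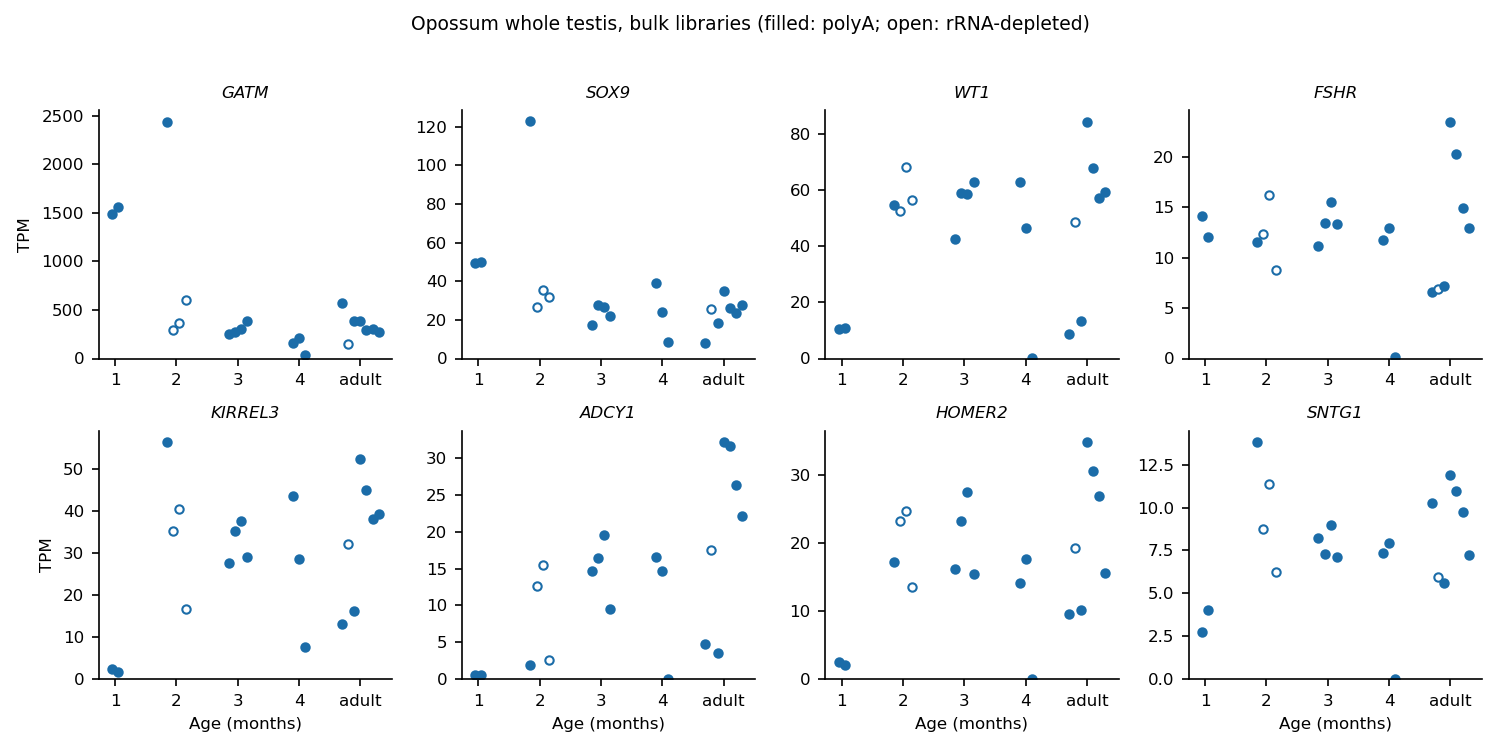
TPM of 8 genes in each bulk library of opossum testis by age in months, with filled points for polyA and open points for rRNA-depleted libraries. GATM is highest in the polyA libraries of 1 and 2 months, KIRREL3, ADCY1 and HOMER2 are low in both 1-month libraries, and 1 library of 4 months lies at or near 0 for most of the genes.

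Among the leading genes of opossum cells, KIRREL3 rose from 2.29 and 1.68 TPM at 1 month to 13.2 to 52.6 TPM (median 38.8) in adults (log2 difference 3.40 ± 0.58 (SE), adjusted p = 0.000269), and all 13 alternatives kept the call. ADCY1 rose from 0.594 and 0.503 TPM to 3.54 to 32.1 TPM (median 24.2) (log2 difference 3.38 ± 0.99 (SE), adjusted p = 0.012), and HOMER2 from 2.46 and 2.12 TPM to 9.54 to 34.8 TPM (median 21.3) (log2 difference 2.60 ± 0.85 (SE), adjusted p = 0.0217). Neither was called when either 1-month library was left out (adjusted p = 0.0767 and 0.0842 for ADCY1, 0.105 and 0.127 for HOMER2), nor HOMER2 with a pseudocount of 0.1 (adjusted p = 0.085). In both genes adult replicates 1 and 3 were the lowest adult libraries. The neighbouring unnamed genes ENSMODG00000049822 (log2 difference 3.66 ± 0.53 (SE), adjusted p = 5.83e-05) and ENSMODG00000045578 (log2 difference 3.36 ± 0.46 (SE), adjusted p = 3.96e-05) both rose and were called in all 13 alternatives. ENSMODG00000018479, another leading gene without a name, fell from 744 and 714 TPM to 100.1 to 249 TPM (median 165) (log2 difference -2.19 ± 0.65 (SE), adjusted p = 0.0124), and was not called without either 1-month library (adjusted p = 0.0875 and 0.0807). SNTG1 (log2 difference 1.21 ± 0.64 (SE), adjusted p = 0.126) and PLEKHA7 (log2 difference 2.77 ± 1.19 (SE), adjusted p = 0.0672) did not pass the test, nor did SYT1, ALAS2 or NR5A2. PLEKHA7 passed it without adult replicate 1 or 3 and with all 20 libraries in the fit. Of the 774 leading genes, 750 were tested, and 273 (36.4%) were higher and 63 (8.4%) lower in adults, against 28.9% and 15.4% of all genes, with a median log2 difference of 1.16 against 0.65. The bases are unlike, since the leading genes had to reach 20 CPM in all 3 adult cell libraries and the other genes only 1 TPM in 2 bulk libraries of any age. With a pseudocount of 0.1 the higher shares were 35.6% and 34.4%. Without the first 1-month library 136 (18.1%) were higher against 17.2% of all genes, and without the second 134 (17.9%) against 16.8%, so the share of higher genes was then near that of all genes. In both cases 41 (5.47%) were lower, against 10.3% and 10.1% of all. In the same libraries 9 of 10 spermatocyte, 7 of 7 round spermatid and 7 of 7 elongating spermatid markers were higher in adults, and 5 of 11 peritubular and stromal markers were lower. The part of such changes in cell makeup in the values of the leading genes was not tested.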

How the data were processed

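The deposited single-cell values are estimated counts per gene and cell barcode, mostly not whole, and how they came to be so is not given in the sources used here. Cell Ranger 6.0.1 is named for these libraries and HISAT2 2.2.1, SAMtools 1.12 and StringTie 2.1.4 for the bulk ones, per the submitters' processing notes. The bulk tables give TPM, FPKM and read coverage per gene, per the file headers. The authors' TPM was analysed, FPKM served as an alternative, and the deposited coverage was not used. TPM keeps no depth, so the depth of these libraries is unknown.

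Barcodes with at least 1000 counts and 500 genes were kept, and the cells chosen by the stated rule. Doublets stayed in; an alternative removed the 8% of cells with the highest Scrublet scores. Counts were summed over the chosen cells of each library, rounded and tested with edgeR 4.0.16 (TMM, filterByExpr, quasi-likelihood), and bulk values with limma 3.58.1 (trend) on log2(TPM + 1) for genes with at least 1 TPM in 2 of the 16 polyA libraries, both with Benjamini-Hochberg adjusted p. A call needed an adjusted p under 0.05 and a log2 difference of 1. Alternatives included DESeq2 1.42.0. Both tests were checked on simulated data in which few genes changed. Large shares of genes were called in the data, a setting that this check does not cover. Leading genes used log2 of CPM + 5. The named genes were those of the lists, the 12 largest differences in each direction, and the 15 leading genes per species with the highest lowest ratio among genes of at least 100 CPM. The members, lists and rules were chosen with earlier results of these data known, and the alternatives on the mouse mixture (only cells below the exclusion, mouse replicates 1 and 2 left out, the opossum rule for shares and leading genes) were added after seeing the data. Of the 32251 opossum genes 11523 carry a name, and 10751 symbols matched between species. The build named for the opossum libraries in the submitters' processing notes is GRCm39, a mouse assembly, so the opossum build is uncertain and no opossum sequence is shown. Some list genes and 1 promoter window are not reported here.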

Additional observations from a re-analysis of the deposited data

Results flagged for a closer look

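In 42 groups of 4 or more bulk libraries 3 had a library far from the others, by cutoffs meant to pass about 1 group in 20. The groups share libraries, so they are not separate trials. Replicate 4 of 3 months stood at 1082 TPM for ENSMODG00000049822 (nearest 710.6) and at 571 TPM for its neighbour ENSMODG00000045578 (nearest 439). Adult replicate 3 stood at 14.6 TPM for another leading opossum gene without a name (nearest 8.06).

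Of the 128 genes of the role lists named in both species, 30 (23.4%) had opposite ratios of chosen to other cells. These lay above 1 in every library of 1 species and below 1 in every library of the other. Of 10751 matched genes 1750 (16.3%) lay so, and 13 of the 30 had at least 20 CPM. The bases are unlike, since all matched genes include many too low to be tested between the species. The role lists also hold choosing genes, whose opossum ratio the rule fixed. Of the 30, 15 also lay so with the mouse cells of the opossum rule, a share near that of all matched genes (889 of 1750). Among the 13, Abca1, Apoe, Cd36, Gclm and Glul did not. These differences were not tested. The values that follow are the mean log2 ratio in opossum minus that in mouse. Up in chosen mouse cells and down in chosen opossum cells were 4 genes of the list for phagocytosis and lipids, Cd36 (-6.78), Apoe (-5.22), Abca1 (-4.98) and Scarb1 (-3.42), while 9 of the 15 named genes of that list were higher in the chosen cells of each opossum library. Mouse Cd36 (CD36) stood at 1.58, 0 and 0.0790 CPM in cells of the opossum rule. Up and down in the same way were Gpx1 (-7.34), the metalloproteinase inhibitor Timp2 (-5.09), Glul (-2.57), and the structural genes Epb41l3 (-3.92), Vim (-3.35) and Ctnna1 (-2.70). Up in the chosen opossum cells and down in those of the mouse were the redox genes Sod2 (1.55) and Gclm (1.46) and the lysosomal gene Lamp1 (0.80).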

How the results depend on the processing

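Against 3304 genes called between the species, the alternatives on normalization, filter, rounding, doublets, depth and threshold gave 2740 to 4016 calls. The median difference moved from -0.07 to -0.28 with RLE factors and -0.27 with DESeq2. Mouse cells chosen by the opossum rule gave 2125 calls, of which 1015 were lower in opossum. With mouse replicates 1 and 2 left out there were 1631 (675 higher, 956 lower), and with both changes 1645 (797 higher, 848 lower). Leaving out 1 library gave 2621 to 4210 calls (1068 to 2055 higher, 1461 to 2155 lower), 681 to 1487 leading genes in mouse, 774 to 1105 in opossum and 50 to 87 in both, and mean shares of 5.44% to 11.5% in mouse and 4.31% to 10.1% in opossum. Mouse cells below the exclusion gave 236 leading genes, 21 of them in both species.

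Among the named genes called between the species, signs turned only with changed mouse cells or libraries. With the opossum rule the log2 difference was 5.24 for CREB3L1 and 2.91 for STAR. With mouse cells below the exclusion it was 4.38 for CREB3L1, 3.21 for STAR, 0.80 for DHRS3, 0.57 for CAT and 0.37 for ABCA1. With mouse replicates 1 and 2 left out it was 0.27 for PFKP, and with the opossum rule as well 4.27 for CREB3L1, 2.44 for STAR, 6.51 for CD36, 1.27 for DHRS3, 1.01 for PFKP and 0.46 for CAT. The cause was not tested. Over the named genes, 1342 of 1495 values of the species difference and 258 of 273 bulk values kept their side of the threshold. Genes called in neither setting count as kept. The first count also holds the 12 genes in each direction picked as the largest calls of these same data, so it favours agreement.

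In the bulk data, leaving out 1 library gave 5027 to 9914 calls (3145 to 7023 higher, 1882 to 2933 lower), and among the leading genes 134 to 350 higher and 41 to 68 lower. Equal replicate numbers did not deviate together (correlations -0.15, 0.046 and 0.13 in cells and 0.018 in bulk). The bulk value is for replicate 1 alone, so it cannot show whether the numbers pair the samples. With the replicate number as a block there were 3257 calls between species, and in bulk 4336 (2374 higher, 1962 lower), with 124 leading genes higher and 30 lower. The block ended the bulk calls of GATM (adjusted p = 0.154), ADCY1 (0.0936), HOMER2 (0.0988) and ENSMODG00000018479 (0.111). Opossum replicate 3, with 78 cells, limits what can be seen of low genes.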

Other observations

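In the chosen mouse cells of replicate 3, Erbb4, a receptor of neuregulins, stood at 414 CPM, against 12.8 and 1.10 in replicates 1 and 2, and Mrc1, the mannose receptor of macrophages, at 157 CPM against 10.4 and 3.30.

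The 4 rRNA-depleted bulk libraries were kept out of the age test. In them GATM stood at 296, 370.3 and 605 TPM at 2 months and 152 TPM in the adult, and KIRREL3 at 35.3, 40.6 and 16.7 TPM and 32.3 TPM.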
